A study of Mus musculus with 20 samples.

Results

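The interleukin genes, the genes of their receptors, the 4 JAK kinases and the SOCS family were followed in the epididymal white adipose tissue (eWAT) of obese mice given alkaloids of mulberry twig. A gene was a member when its symbol was Il or Socs followed by a digit, or was Jak1, Jak2, Jak3, Tyk2 or Cish. Il1b, Il18, Il1rn, Il1rl1 and Il34 were left out by this rule. Of 14776 genes in the table, 49 were members: 6 ligands, 2 soluble binding proteins, 29 receptor chains, 4 kinases and 8 SOCS genes. The annotation holds 90 symbols that match the rule, and the 41 others, among them Il6, Il10 and Il13, were not analysed here.

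The study asked how Ramulus Mori (Sangzhi) alkaloids (SZ-A) act on fat tissue metabolism and inflammation in mice made obese by a high-fat diet (HFD). All 20 mice were male C57BL/6J and were 6 weeks old when feeding began. The 6 normal chow (NC) mice ate maintenance feed, while the 7 HFD mice and the 7 SZ-A mice ate a diet with 60 kcal% fat throughout. After 14 weeks the SZ-A mice received SZ-A into the stomach at 400 mg/kg per day for 6 weeks and the HFD mice received saline. All mice were fasted overnight before the tissue was taken, and each mouse gave 1 library of poly(A) RNA.

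Interleukins act on receptors built from a ligand-binding chain and a partner that carries the signal. Receptors of the common gamma chain, gp130, IL-3 and IL-10 families have no enzyme of their own and rely on JAK kinases, which phosphorylate STAT transcription factors. CISH and several of the SOCS proteins are induced by STATs and switch the same receptors off. Receptors of the IL-1 and IL-17 families signal through adaptors to NF-kB instead. In fat tissue these receptors sit on macrophages, lymphocytes, mast cells and stromal cells as well as on adipocytes, and obesity is known for the entry of macrophages.

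The values are FPKM, which corrects fragment counts for the length of the gene and for sequencing depth, so levels can be compared between genes. Between 13567667 and 19388628 reads per mouse lay behind them, and 13 members had fewer than 10 reads in at least 1 mouse. The mice least correlated with their own group were NC 6, HFD 1 and SZ-A 5. The median correlation of NC 6 with the other NC mice was 0.765, where the next lowest NC mouse had 0.881. In NC 6 the summed level of 10 adipocyte markers was 488 FPKM against a group median of 14155, and NC 6 had the lowest NC value for 31 of 49 members. SZ-A 5 had 11.6% mitochondrial reads, where the next highest SZ-A mouse had 5.11%, and the highest SZ-A value for 20 members. Its median correlation, 0.895, was close to that of SZ-A 2 at 0.919, which had the lowest SZ-A value for 16 members. HFD 1 had a median correlation of 0.962, where the next lowest HFD mouse had 0.980, and the highest HFD value for 21 members. NC 1 had 8.34% mitochondrial reads, the highest of the NC mice. Counts are given with and without NC 6, HFD 1 and SZ-A 5, as are the calls of single members that change without them. RNA of whole tissue was measured, so fewer cells of a type and less RNA per cell cannot be told apart.

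Many members were higher in HFD mice. By limma on log2(FPKM + 1) with Benjamini-Hochberg adjustment over all genes, 27 of 49 members were higher and 4 were lower in HFD than in NC mice at an adjusted p under 0.05. Over all 14706 genes tested, 21.0% were higher and 20.1% lower. The median log2 fold change was 0.41 over the members and -0.04 over all genes. In 14 members every HFD mouse lay above every NC mouse, and in 0 members below, where the groups did not overlap in 12.7% and 7.77% of all genes. A log2 fold change over 1.5 was reached by 6 of the higher members (Il7r, Il10ra, Il3ra, Il27ra, Socs3 and Il10rb) and by 1 of the lower members (Il22ra2), against 5.43% and 2.54% of all genes (7.97% in either direction). Without NC 6 and HFD 1, 22 members were higher and 6 lower, against 21.7% and 21.0% of all genes, and 26 of these 28 were also called over all mice.

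SZ-A moved fewer members, mostly downward. Compared with HFD, 12 members were lower and 4 were higher in SZ-A mice, where 13.3% of all 14695 genes tested were lower and 9.47% higher (22.8% in either direction). The median log2 fold change was -0.19 over the members and 0.03 over all genes. In 4 members, Il1rap, Il1rl2, Il21r and Jak1, every SZ-A mouse lay below every HFD mouse, which 4.01% of all genes did (6.08% did not overlap in either direction). No member (0 of 49) reached a log2 fold change of 1.5 in this comparison, which 0.864% of all genes did. Without HFD 1 and SZ-A 5, 19 members were lower and 3 higher, against 14.3% and 9.46% of all genes. Of the 16 members called over all mice, 13 were also called without these mice, and Il13ra1, Il17rb and Il33 were not. Compared with NC, 3 members were higher in SZ-A mice (Il7r, Il3ra and Il27ra) and 0 lower, against 4.15% and 0.455% of all 14718 genes tested (4.61% in either direction). Without NC 6 and SZ-A 5, 4 members were higher and 0 lower, against 5.30% and 0.992% of all genes. The added member was Il10rb (0.96, adjusted p = 0.012). Over all mice, 14 members were higher and 0 lower in SZ-A than in NC at an unadjusted limma p under 0.05. The share of all genes at that unadjusted limit is not given. Voom on the recovered reads called 3 members higher and 0 lower, against 3.81% and 0.340% of all genes. Il7r and Il3ra differed by a log2 fold change over 1.5, as did 1.79% of all genes, and Il7r alone had SZ-A and NC values that did not overlap, as in 3.57% of all genes. Each of the 49 members passed the filter on low values in every comparison.

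The comparisons of HFD with NC and of SZ-A with HFD share the 7 HFD mice, so an opposite sign in them is not independent. The values of each comparison are therefore given side by side.

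**Figure D1:**
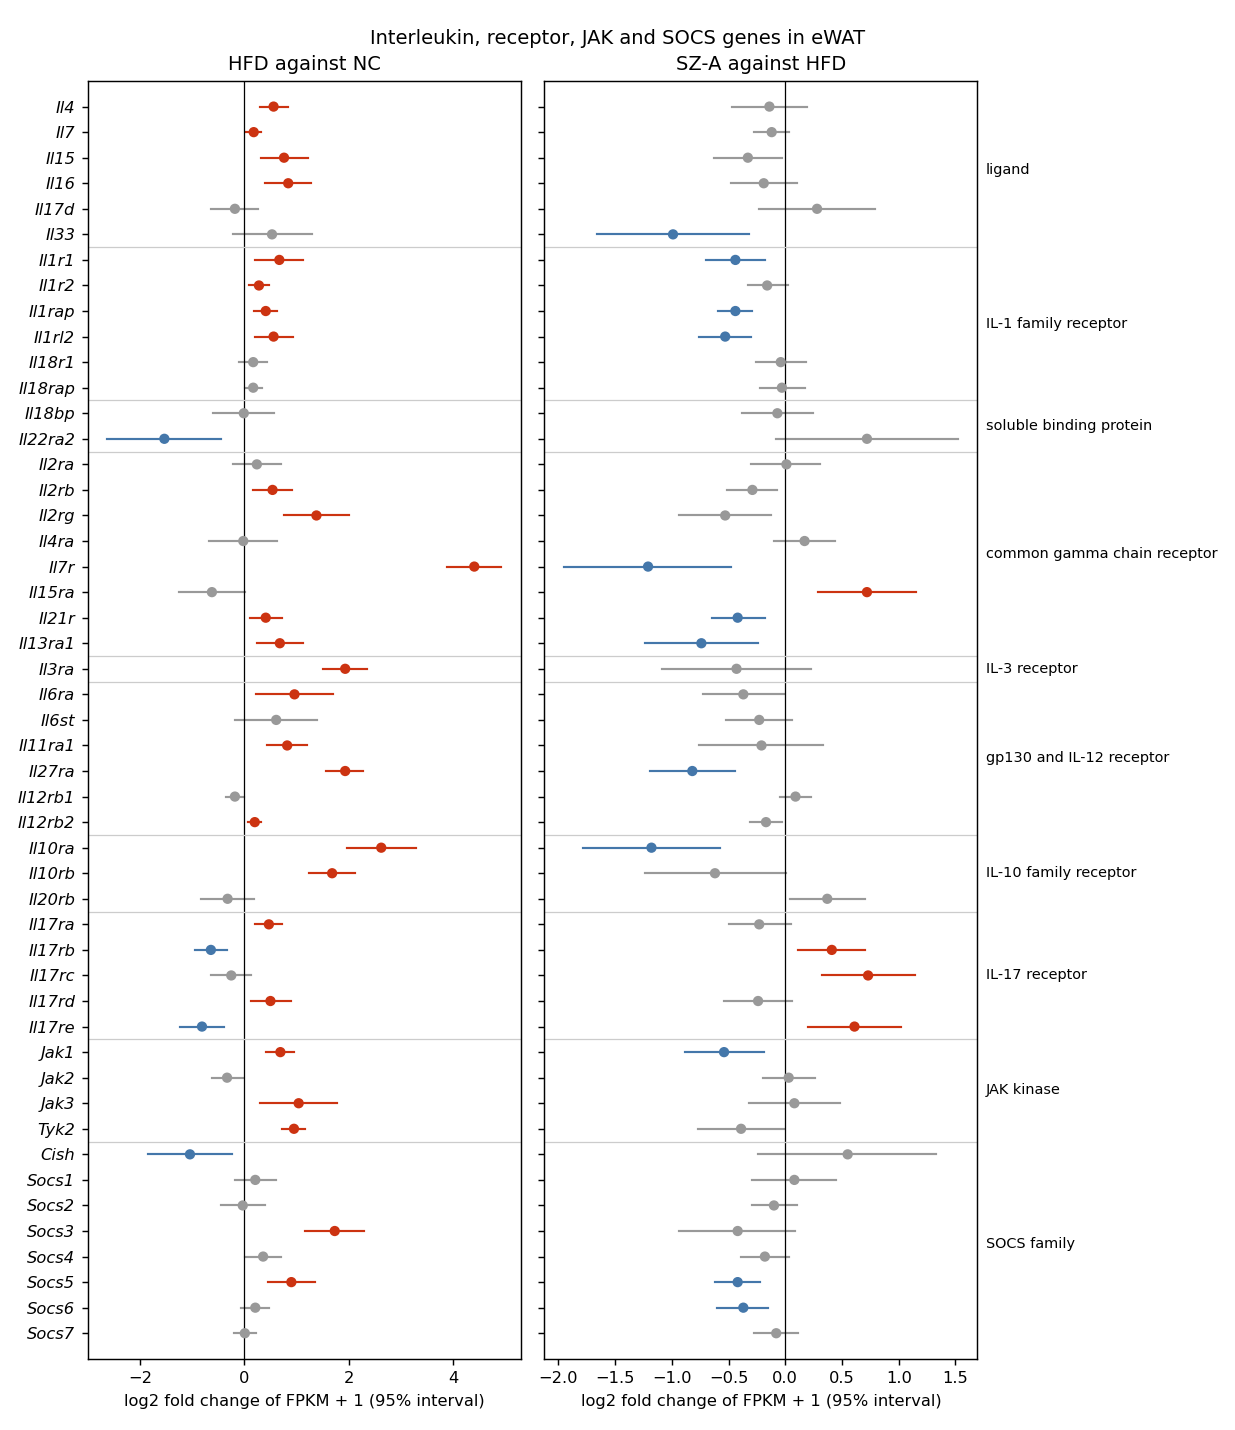
Log2 fold change of FPKM + 1 with its 95% interval for the 49 members in HFD against NC mice (left) and SZ-A against HFD mice (right), with separate scales. Red points are higher and blue points lower at an adjusted p under 0.05, and grey points missed that threshold. Il7r is farthest to the right in HFD against NC (4.40), and Il7r (-1.21) and Il10ra (-1.18) are farthest to the left in SZ-A against HFD.

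Il7r, the ligand-binding chain for IL-7 that lymphocytes need to survive, had the largest log2 fold change of the members in HFD against NC. It measured 0.0147 to 2.14 FPKM in NC mice (median 0.895), 30.6 to 50.3 among HFD mice (median 39.7) and 8.04 to 44.8 among SZ-A mice (median 14.1). Every HFD and every SZ-A mouse lay above every NC mouse, and 5 of 7 SZ-A mice lay below every HFD mouse. By median level Il7r ranked 38 of 49 members in NC mice, 2 in HFD mice and 7 in SZ-A mice. The log2 fold change was 4.40 ± 0.24 (SE) in HFD against NC (adjusted p = 3.0e-08) and -1.21 ± 0.35 in SZ-A against HFD (adjusted p = 0.021). SZ-A mice remained above NC mice by 3.18 ± 0.42 on the log2 scale (adjusted p = 9.1e-04). Without NC 6, whose value rests on 1 read, and HFD 1 the difference of HFD from NC was 4.15 (adjusted p = 8.1e-08). Its ligand gene Il7 was far lower, with medians of 0.275 FPKM (NC), 0.433 FPKM (HFD) and 0.318 FPKM (SZ-A).

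The gene lies on the minus strand of chromosome 15 (chr15:9505788-9530176, GRCm38). Its upstream stretch is shown because Il7r had the largest change in HFD and because the letters TTCNNNGAA, which read the same on both strands and are the core bound by STAT proteins, occur in it once. The stretch is chr15:9529877-9530040 on the minus strand (RefSeq, GRCm38), ends 1 base before the RefSeq transcript start used, and has the match in capitals, which begins 142 bases before that start. That start lies inside the gene as annotated above, so the stretch is a non-exonic part of the annotated gene, 136 to 299 bases from its 5' end.

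Il7r upstream: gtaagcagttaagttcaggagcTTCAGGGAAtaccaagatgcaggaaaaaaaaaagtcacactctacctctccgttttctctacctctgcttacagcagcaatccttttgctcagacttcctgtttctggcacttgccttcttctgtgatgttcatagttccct

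Such a match lay in the 250 bases upstream of 7.02% of 32851 transcript starts. Among the members, 36 of 49 had an upstream window, and 5 of their 45 windows held the letters (11.1%), those of Il7r, Socs3, Il12rb2, Il18r1 and Il1r2. Of these genes, Il7r, Socs3, Il12rb2 and Il1r2 were higher in HFD and Il18r1 was not called. Over the members 27 of 49 were higher in HFD, as were 21.0% of all genes. Il10ra, Il10rb, Il27ra and Socs5, also higher in HFD, had no window. Whether the letters go with the rise was not tested. A match is a run of letters and no measure of binding.

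The chains of the common gamma chain family moved in several directions. With Il7r and the partner chains Il4ra and Il13ra1 counted in, 5 of 8 were higher in HFD than in NC. The rest were not called, and 21.0% of all genes were higher. In SZ-A against HFD 3 of the 8 were lower and 1 was higher, against 13.3% and 9.47% of all genes. Il2rg, the common gamma chain itself, measured 0.345 to 4.36 FPKM in NC (median 2.41), 4.97 to 9.35 among HFD mice (6.61) and 2.21 to 7.57 among SZ-A mice (4.28). Its HFD and NC values did not overlap (log2 fold change 1.38 ± 0.29, adjusted p = 0.002), and 5 of 7 SZ-A mice lay below every HFD mouse (-0.53 ± 0.19, adjusted p = 0.056). Without HFD 1 and SZ-A 5 the latter difference was -0.58 (adjusted p = 0.027). In the annotation 30.5% of the exon bases of Il2rg also belong to a second gene on the same strand, so its level is uncertain.

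Il21r, the receptor for the T cell cytokine IL-21, was low in every group. It measured 0.165 to 0.773 FPKM in NC (median 0.453), 0.676 to 1.76 among HFD mice (0.797) and 0.229 to 0.648 among SZ-A mice (0.493). All 7 SZ-A mice lay below every HFD mouse. The log2 fold change was 0.41 ± 0.14 in HFD against NC (adjusted p = 0.033) and -0.42 ± 0.11 in SZ-A against HFD (adjusted p = 0.015). The rise in HFD was lost without NC 1, NC 3, NC 6, HFD 1, HFD 5 or HFD 6, at an adjusted p of up to 0.072, and was 0.26 (adjusted p = 0.092) without both NC 6 and HFD 1. The fall in SZ-A was called whichever mouse was left out.

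Il13ra1 joins Il4ra to form a receptor for IL-4 and IL-13. It measured 2.59 to 7.65 FPKM in NC (median 3.42), 5.62 to 11.4 among HFD mice (6.59) and 1.87 to 9.90 among SZ-A mice (3.20). The groups overlapped through SZ-A 2, at 9.90, while the other 6 SZ-A mice lay below every HFD mouse. HFD was higher than NC by 0.68 ± 0.21 (adjusted p = 0.017) and SZ-A lower than HFD by a log2 fold change of -0.74 ± 0.24 (adjusted p = 0.035). The fall in SZ-A was called in 4 of 14 fits that left out 1 mouse, and not without HFD 1, 3, 4, 5 or 7 or SZ-A 1, 3, 4, 5 or 6, where the highest adjusted p was 0.076 at a change of -0.63. Il4ra itself, with medians of 12.3, 14.3 and 16.6 FPKM in NC, HFD and SZ-A, was called in neither comparison.

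Il15ra, which holds IL-15 on the cell surface and presents it to neighbouring cells, went the other way. It measured 1.25 to 8.65 FPKM in NC (median 6.36), 2.20 to 3.89 among HFD mice (3.01) and 2.54 to 8.82 among SZ-A mice (5.89). In 6 of 7 SZ-A mice the value was above every HFD mouse, and SZ-A exceeded HFD by 0.72 ± 0.20 (adjusted p = 0.02). HFD against NC gave -0.62 ± 0.29 (adjusted p = 0.11) over all mice and -0.91 (adjusted p = 0.0013) without NC 6. Il2ra, whose gene ends 12096 bases before Il15ra on chromosome 2, had medians of 0.532, 0.719 and 0.842 FPKM and was called in neither comparison. Il2rb, the signalling chain shared by IL-2 and IL-15, was higher in HFD than NC (1.84 against 1.23 FPKM at the median, 0.54 ± 0.17, adjusted p = 0.024), though not without NC 1 (0.49, adjusted p = 0.054). The change of Il2rb in SZ-A against HFD was -0.29 (adjusted p = 0.055) over all mice and -0.33 (adjusted p = 0.024) without SZ-A 5.

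The receptors for IL-10, IL-27 and IL-3 were among the members with the largest rises in HFD. Il10ra, the ligand-binding chain for the anti-inflammatory cytokine IL-10, measured 0.451 to 6.09 FPKM in NC (median 3.74), 19.3 to 29.3 among HFD mice (25.4) and 5.39 to 27.9 among SZ-A mice (8.0). All HFD mice lay above all NC mice, and 6 of 7 SZ-A mice lay below every HFD mouse, the exception being SZ-A 5 at 27.9. The change was 2.62 ± 0.30 in HFD against NC (adjusted p = 1.8e-05) and -1.18 ± 0.28 in SZ-A against HFD (adjusted p = 0.0089). Without HFD 1 and SZ-A 5 the latter was -1.36 (adjusted p = 0.0015).

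Il10rb is the partner chain that IL-10 shares with IL-22 and the type III interferons. It measured 6.45 to 15.7 FPKM in NC (median 8.58), 23.8 to 45.0 among HFD mice (30.9) and 11.8 to 60.5 among SZ-A mice (16.3). HFD and NC did not overlap (1.68 ± 0.20, adjusted p = 2.7e-05). In SZ-A, 5 of 7 mice lay below every HFD mouse and SZ-A 5, at 60.5, lay above every HFD mouse. The SZ-A change from HFD was -0.62 ± 0.29 (adjusted p = 0.14) over all mice and -0.88 (adjusted p = 0.0041) without SZ-A 5. Its change in SZ-A against NC was 1.07 (adjusted p = 0.089) over all mice and 1.22 (adjusted p = 0.048) without NC 6. Of its exon bases 14.9% also belong to a read-through gene model on the same strand.

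Il27ra, the specific chain of the IL-27 receptor, was low in NC mice. It measured 0.157 to 1.35 FPKM in NC (median 0.666), 4.18 to 6.41 among HFD mice (5.17) and 1.27 to 4.25 among SZ-A mice (2.63). No HFD value overlapped the NC values, and 6 of 7 SZ-A mice lay below every HFD mouse. The difference was 1.93 ± 0.17 in HFD against NC (adjusted p = 1.2e-06), -0.82 ± 0.17 in SZ-A against HFD (adjusted p = 0.0048) and 1.11 ± 0.22 in SZ-A against NC (adjusted p = 0.01).

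Il3ra, the specific chain of the receptor for IL-3, a growth factor of mast cells and basophils, measured 2.47 to 7.34 FPKM in NC (median 4.10), 15.6 to 24.9 among HFD mice (19.8) and 6.37 to 46.8 among SZ-A mice (12.0). All 7 HFD mice lay above every NC mouse, and 5 of 7 SZ-A mice lay below every HFD mouse. SZ-A 5 lay far above the rest at 46.8. The rise in HFD was 1.93 ± 0.20 (adjusted p = 5.5e-06). SZ-A against HFD gave -0.43 ± 0.31 (adjusted p = 0.32) over all mice and -0.70 (adjusted p = 0.024) without SZ-A 5. SZ-A remained above NC by 1.5 ± 0.37 (adjusted p = 0.032), a call lost without NC 1, 2, 5 or 6 or SZ-A 3 or 6, at an adjusted p of up to 0.078.

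**Figure D2:**
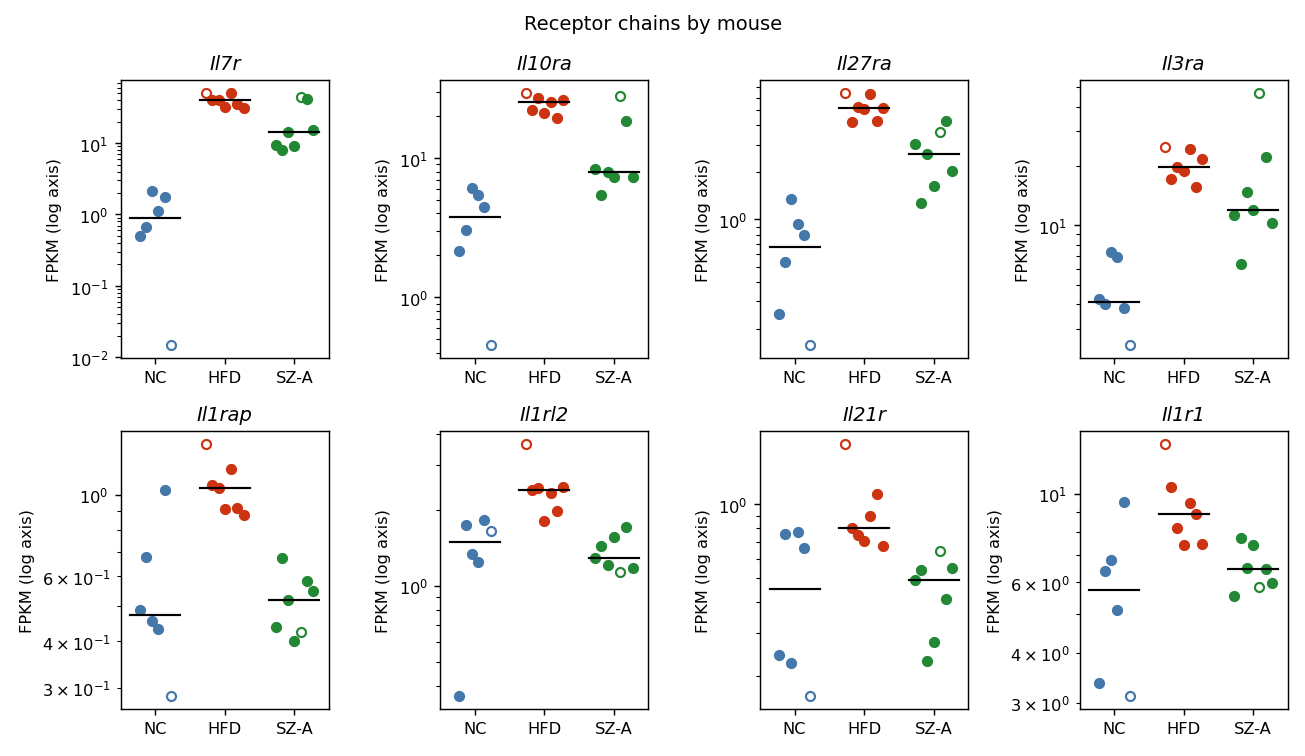
FPKM of 8 receptor chains by mouse on log axes with separate scales, with 6 NC, 7 HFD and 7 SZ-A mice and a line at each median. Open circles are the mouse of each group least correlated with its group (NC 6, HFD 1 and SZ-A 5). HFD and NC mice do not overlap for Il7r, Il10ra, Il27ra and Il3ra, and SZ-A and HFD mice do not overlap for Il1rap, Il1rl2 and Il21r.

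The remaining chains of the gp130 and IL-12 receptor families rose in HFD or were not called. Il11ra1, the receptor chain for IL-11, measured 11.1 to 17.6 FPKM in NC (median 12.9), 18.6 to 39.9 among HFD mice (23.1) and 13.5 to 54.4 among SZ-A mice (18.9). HFD mice all lay above NC mice (0.82 ± 0.18, adjusted p = 0.0026), and the SZ-A values spanned those of HFD (-0.21 ± 0.26, adjusted p = 0.57). Il11ra1 has near-identical copies in the mouse genome that can share its reads, so its level is uncertain. Il12rb2, a chain of the IL-12 receptor, rose from a median of 0.137 to 0.282 FPKM (0.20 ± 0.06, adjusted p = 0.0099), on at most 26 reads in a mouse and with 40.0% of its exon bases shared with Serbp1 on the other strand. Il6ra, which binds IL-6, was 7.32 FPKM in NC and 12.5 in HFD at the median (0.96 ± 0.34, adjusted p = 0.036). That call held in 5 of 13 fits that left out 1 mouse and was lost without NC 1 or 2 or HFD 2 to 7, where the highest adjusted p was 0.084. Without both NC 6 and HFD 1 it was 0.71 (adjusted p = 0.052). Il6st, the shared signalling chain gp130, ranked first of all members in NC at a median of 30.0 FPKM, with 35.9 in HFD and 31.8 in SZ-A mice, and was called in neither comparison.

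Of 6 chains of the IL-1 receptor family, 4 were higher in HFD than in NC and 3 fell below HFD in SZ-A mice. The shares of all genes were 21.0% and 13.3%. Il1rap, the accessory chain that the receptors for IL-1, IL-33 and IL-36 share, measured 0.284 to 1.03 FPKM in NC (median 0.470), 0.881 to 1.37 among HFD mice (1.04) and 0.400 to 0.674 among SZ-A mice (0.517). Every SZ-A mouse lay below every HFD mouse, and 4 of 7 HFD mice lay above every NC mouse. The log2 fold change was 0.41 ± 0.10 in HFD against NC (adjusted p = 0.0065) and -0.44 ± 0.07 in SZ-A against HFD (adjusted p = 0.0012), the smallest adjusted p of the members in that comparison.

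Il1rl2, the specific chain of the IL-36 receptor, was arranged likewise. It measured 0.364 to 1.82 FPKM in NC (median 1.49), 1.80 to 3.64 among HFD mice (2.39) and 1.13 to 1.70 among SZ-A mice (1.29). SZ-A and HFD did not overlap (-0.53 ± 0.11, adjusted p = 0.0036), and 6 of 7 HFD mice lay above every NC mouse (0.56 ± 0.17, adjusted p = 0.017). Without HFD 1, which was the highest at 3.64, and SZ-A 5 the fall was -0.43 (adjusted p = 0.0042).

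Il1r1, the signalling receptor for IL-1, measured 3.11 to 9.53 FPKM in NC (median 5.75), 7.45 to 13.3 among HFD mice (8.91) and 5.53 to 7.72 among SZ-A mice (6.47). In SZ-A 6 of 7 mice lay below every HFD mouse (-0.44 ± 0.12, adjusted p = 0.018). The rise in HFD (0.67 ± 0.21, adjusted p = 0.022) was lost without NC 1 (0.56, adjusted p = 0.053) and without both NC 6 and HFD 1 (0.47, adjusted p = 0.07). Il1r2, a decoy that binds IL-1 without signalling, rose from 0.0937 to 0.389 FPKM at the median (0.28 ± 0.09, adjusted p = 0.022) on at most 19 reads in a mouse, and not without NC 2 (0.26, adjusted p = 0.051) or without both NC 6 and HFD 1 (0.23, adjusted p = 0.073). Il1r2, Il1r1, Il1rl2, Il18r1 and Il18rap follow each other on chromosome 1 with 7352 to 99848 bases between neighbours. Il18r1 and Il18rap, the chains of the IL-18 receptor, were at most 0.930 FPKM in every mouse and were called in neither comparison over all mice.

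The IL-17 receptor chains were split. Il17ra, the chain common to the family, and Il17rd were higher in HFD than in NC, Il17rb and Il17re were lower, and Il17rc was not called. In SZ-A against HFD 3 of 5 were higher and the rest were not called, where 9.47% of all genes were higher. The median log2 fold change of the 5 chains was -0.25 in HFD against NC and 0.41 in SZ-A against HFD.

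Il17rc, which pairs with IL-17RA to bind IL-17A and IL-17F, measured 8.52 to 13.3 FPKM in NC (median 12.1), 5.54 to 13.1 among HFD mice (10.4) and 10.6 to 21.3 among SZ-A mice (17.7). In SZ-A 6 of 7 mice lay above every HFD mouse and above every NC mouse. SZ-A exceeded HFD by 0.73 ± 0.19 (adjusted p = 0.014), a call made whichever mouse was left out, and SZ-A against NC gave 0.47 ± 0.17 (adjusted p = 0.15). It ranked 12 of 49 members by median level in HFD and 4 in SZ-A mice.

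Il17re, the receptor chain for the epithelial cytokine IL-17C, is the neighbour of Il17rc on the plus strand of chromosome 6 and ends 668 bases before it. Il17re measured 0.668 to 3.48 FPKM in NC (median 1.57), 0.288 to 0.913 among HFD mice (0.660) and 0.293 to 2.16 among SZ-A mice (1.95). In 5 of 7 SZ-A mice the value was above every HFD mouse, and in 4 of 7 HFD mice below every NC mouse. The change was -0.81 ± 0.20 in HFD against NC (adjusted p = 0.005) and 0.61 ± 0.19 in SZ-A against HFD (adjusted p = 0.034). The latter was called in 5 of 14 fits that left out 1 mouse, was lost without HFD 1, 2, 3 or 5 or SZ-A 1, 2, 3, 4 or 7 at an adjusted p of up to 0.073, and was 0.76 (adjusted p = 0.0027) without SZ-A 5. It was also lost with a pseudocount of 0.1 (1.10), with voom on the recovered reads (1.25) and with the epididymis covariate described below (0.17).

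Part of the sequence between these neighbours, upstream of Il17rc, is shown because it lies between the end of a member and the start of another that were both higher in SZ-A. It is chr6:113471205-113471426 on the plus strand (RefSeq, GRCm38) and ends 29 bases before the Il17rc transcript start in RefSeq. The letters TTCNNNGAA are not in it, so it carries no capitals.

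Il17rc upstream: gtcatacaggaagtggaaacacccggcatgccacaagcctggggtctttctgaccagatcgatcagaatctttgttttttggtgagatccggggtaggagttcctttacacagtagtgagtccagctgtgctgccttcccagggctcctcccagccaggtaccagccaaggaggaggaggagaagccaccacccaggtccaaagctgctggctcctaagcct

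Il17rb, which binds IL-25 and IL-17B, measured 0.705 to 1.44 FPKM in NC (median 1.13), 0.0175 to 0.862 among HFD mice (0.275) and 0.398 to 1.39 among SZ-A mice (0.735). In HFD 6 of 7 mice lay below every NC mouse (-0.64 ± 0.14, adjusted p = 0.0028), and HFD 1 had a single read. SZ-A overlapped HFD in 6 of 7 mice (0.41 ± 0.14, adjusted p = 0.047). This was called in 4 of 14 fits that left out 1 mouse and lost without HFD 1, 3, 4, 5 or 7 or SZ-A 1, 2, 3, 4 or 7, where the highest adjusted p was 0.10. With the epididymis covariate described below the change of Il17rb was 0.06 and not called. Il17ra measured 1.54 to 2.72 FPKM in NC (median 1.77), 2.60 to 3.90 among HFD mice (3.02) and 1.96 to 4.36 among SZ-A mice (2.35). It was higher in HFD by 0.47 ± 0.12 (adjusted p = 0.0071), and SZ-A against HFD gave -0.23 ± 0.13 (adjusted p = 0.21) over all mice and -0.33 (adjusted p = 0.014) without SZ-A 5. Il17rd rose from 1.11 to 1.74 FPKM at the median (0.50 ± 0.18, adjusted p = 0.038), in 4 of 13 fits that left out 1 mouse, and not without NC 1, 2 or 6 or HFD 2 to 7, where the adjusted p reached 0.081.

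**Figure D3:**
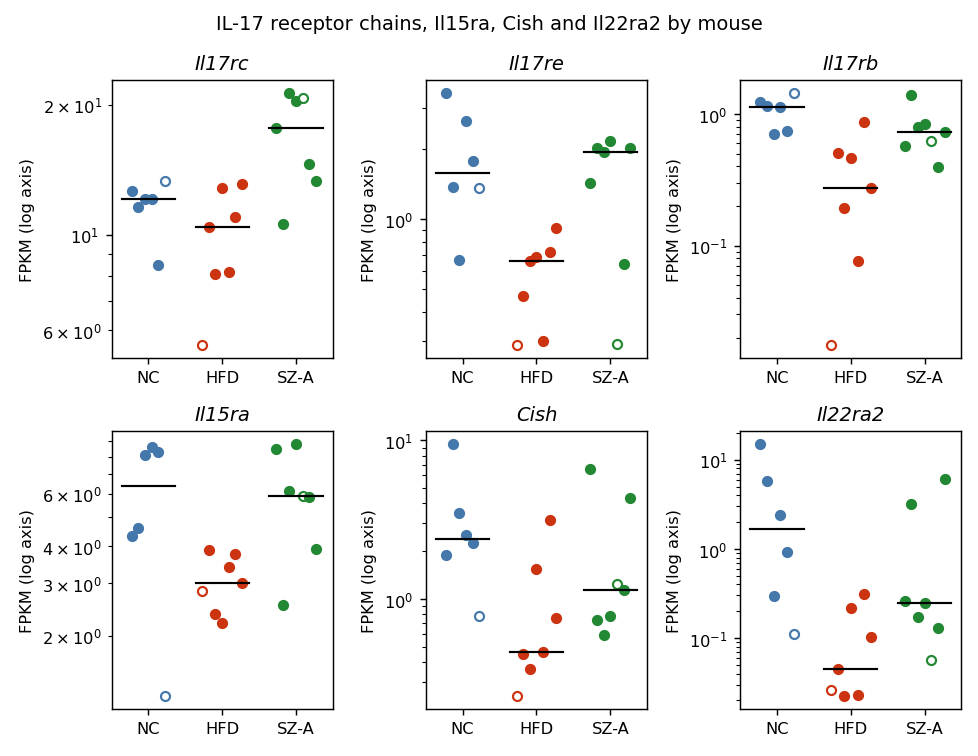
FPKM by mouse, on log axes with separate scales, of Il17rc, Il17re, Il17rb and Il15ra, which were higher in SZ-A than in HFD, and of Cish and Il22ra2, which were lower in HFD than in NC. Lines are medians and open circles are NC 6, HFD 1 and SZ-A 5. In 6 of 7 SZ-A mice Il17rc and Il15ra lie above every HFD mouse, whereas Cish and Il22ra2 in SZ-A mice spread over those of both other groups.

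Among the ligands, Il4, Il7, Il15 and Il16 were higher in HFD than in NC and the other two were not called, while Il33 alone was called in SZ-A against HFD. Il4 is described because the study also used it in a PCR assay, and it encodes the main cytokine of allergic immunity. It stood at 0.710 to 1.11 FPKM in NC (median 0.971), 1.25 to 2.59 among HFD mice (2.18) and 0.890 to 2.87 among SZ-A mice (1.59). The HFD and NC values did not overlap (0.56 ± 0.12, adjusted p = 0.0028), with 14 to 51 reads per mouse in these groups. SZ-A against HFD gave -0.14 ± 0.15 (95% interval -0.47 to 0.19, adjusted p = 0.52).

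Il16, a chemoattractant for CD4+ cells, measured 0.0698 to 1.72 FPKM in NC (median 1.31), 2.07 to 3.11 among HFD mice (2.49) and 1.29 to 3.89 among SZ-A mice (1.92), and its HFD and NC values did not overlap (0.84 ± 0.20, adjusted p = 0.0049). In SZ-A against HFD the change of Il16 was -0.19 (adjusted p = 0.31) over all mice and -0.30 (adjusted p = 0.028) without SZ-A 5. Il15, a survival factor of NK and memory T cells, measured 0.637 to 3.83 FPKM in NC (median 2.07), 3.63 to 4.88 among HFD mice (4.29) and 2.35 to 6.00 among SZ-A mice (2.93), a rise of 0.76 ± 0.21 in HFD (adjusted p = 0.01). In 6 of 7 SZ-A mice Il15 lay below every HFD mouse and SZ-A 5 lay above them all. SZ-A against HFD gave -0.33 ± 0.14 (adjusted p = 0.10) for Il15 over all mice and -0.46 (adjusted p = 0.0019) without SZ-A 5. For Il7 the rise in HFD was 0.18 ± 0.07 (adjusted p = 0.046) and was called in 4 of 13 fits that left out 1 mouse, with 0.14 (adjusted p = 0.093) without NC 6.

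Il33, an alarmin released by damaged stromal cells, measured 0.761 to 7.91 FPKM in NC (median 3.29), 3.29 to 14.0 among HFD mice (4.47) and 0.746 to 6.00 among SZ-A mice (1.90). In SZ-A 5 of 7 mice lay below every HFD mouse (-0.99 ± 0.31, adjusted p = 0.034). HFD 1, at 14.0, lay far above the other HFD mice. The call was lost without HFD 1, 3 or 5 or SZ-A 1, 3, 4, 5 or 6, at an adjusted p of up to 0.069, and the change without HFD 1 and SZ-A 5 was -0.64 (adjusted p = 0.078). HFD against NC gave 0.53 ± 0.35 (adjusted p = 0.24). Il17d had the highest median of the ligands in each group, 6.91, 6.61 and 8.23 FPKM in NC, HFD and SZ-A, and was called in neither comparison.

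The soluble binding proteins are traps for their ligands. Il22ra2, a secreted trap for IL-22, measured 0.110 to 15.0 FPKM in NC (median 1.68), 0.0222 to 0.314 among HFD mice (0.0451) and 0.0574 to 6.04 among SZ-A mice (0.250). In HFD 5 of 7 mice lay below every NC mouse and no HFD mouse had more than 14 reads. HFD was lower than NC by a log2 fold change of -1.53 ± 0.51 (adjusted p = 0.028), which was lost without NC 2 (-1.31, adjusted p = 0.065). For SZ-A against HFD it was 0.72 ± 0.38 (adjusted p = 0.17). Il18bp, the trap for IL-18, had medians of 1.85, 1.97 and 1.99 FPKM and was called in neither comparison.

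Of the 4 JAK kinases, 3 rose in HFD, as did 21.0% of all genes. Jak1, which serves nearly all of the JAK-dependent receptors here, was the most abundant member in HFD and in SZ-A mice. It measured 19.8 to 33.7 FPKM in NC (median 25.8), 38.5 to 44.6 among HFD mice (42.6) and 14.4 to 36.2 among SZ-A mice (31.9). Every HFD mouse lay above every NC mouse and above every SZ-A mouse. HFD exceeded NC by 0.69 ± 0.13 (adjusted p = 8.5e-04), and SZ-A against HFD gave -0.54 ± 0.16 (adjusted p = 0.028). The fall was lost without HFD 1, 3 or 5 (adjusted p up to 0.053, -0.52 without HFD 1) and was -0.38 (adjusted p = 0.0039) without SZ-A 5, the lowest mouse at 14.4.

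Tyk2, which acts with JAK1 and JAK2 at interferon, IL-10 and IL-12 receptors, measured 3.67 to 4.88 FPKM in NC (median 4.45), 8.10 to 11.5 among HFD mice (9.43) and 4.84 to 14.2 among SZ-A mice (5.93). The HFD and NC values did not overlap (0.95 ± 0.10, adjusted p = 9.9e-06). In SZ-A 5 of 7 mice lay below every HFD mouse, and SZ-A 5 was above them all. The change from HFD to SZ-A was -0.39 ± 0.18 (adjusted p = 0.12) over all mice and -0.55 (adjusted p = 0.0028) without SZ-A 5.

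Jak3, the partner of the common gamma chain, was higher in HFD and was not called in SZ-A against HFD. It measured 0.769 to 9.09 FPKM in NC (median 4.05), 6.20 to 12.9 among HFD mice (9.33) and 5.22 to 13.7 among SZ-A mice (11.4). The groups overlapped in both comparisons (1.04 ± 0.34, adjusted p = 0.027, and 0.08 ± 0.19, adjusted p = 0.77). The rise in HFD was lost without NC 1, HFD 6 or HFD 7, with 0.96 (adjusted p = 0.058) without NC 1. Jak2 measured 12.2 to 21.9 FPKM in NC (median 16.3), 11.4 to 16.6 among HFD mice (12.8) and 12.3 to 18.9 among SZ-A mice (12.7), and its differences were -0.33 ± 0.14 (adjusted p = 0.072) and 0.03 ± 0.11 (adjusted p = 0.87). Without NC 6 Jak2 was lower in HFD (-0.41, adjusted p = 0.017), as it was without HFD 2.

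Of the 8 SOCS genes, Socs3 and Socs5 were higher and Cish was lower in HFD than in NC. Compared with HFD mice, SZ-A mice had less Socs5 and Socs6. Among all genes 21.0% were higher and 20.1% lower in HFD, and 13.3% were lower in SZ-A. Socs3, the inhibitor of gp130 and of the leptin receptor, measured 0.522 to 4.69 FPKM in NC (median 1.97), 7.20 to 10.1 among HFD mice (8.04) and 2.10 to 13.4 among SZ-A mice (5.94). HFD and NC did not overlap (1.73 ± 0.26, adjusted p = 1.8e-04). In SZ-A 4 of 7 mice lay below every HFD mouse and SZ-A 5 lay above. The change in SZ-A against HFD was -0.42 ± 0.24 (adjusted p = 0.21) over all mice and -0.59 (adjusted p = 0.037) without SZ-A 5. SZ-A against NC gave 1.30 ± 0.36 (adjusted p = 0.054), with 6 of 7 SZ-A mice above every NC mouse, and 1.5 (adjusted p = 0.018) without SZ-A 2.

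A stretch upstream of Socs3 is shown because the gene had the largest rise among the JAK and SOCS genes and because its window, like that of Il7r, holds TTCNNNGAA, in capitals. It is chr11:117969452-117969616 on the minus strand (RefSeq, GRCm38) and ends 86 bases before the RefSeq transcript start, and the match begins 154 bases before that start. The annotated gene (chr11:117966079-117970047, GRCm38) begins farther upstream, so the stretch is a non-exonic part of it, 431 to 595 bases from its 5' end.

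Socs3 upstream: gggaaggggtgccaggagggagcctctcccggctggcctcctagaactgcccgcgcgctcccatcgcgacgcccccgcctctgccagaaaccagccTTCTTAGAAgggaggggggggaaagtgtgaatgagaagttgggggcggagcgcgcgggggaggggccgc

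Socs5, which is linked to the restraint of IL-4 and EGF receptor signals, measured 2.45 to 9.37 FPKM in NC (median 6.06), 9.69 to 12.0 among HFD mice (11.5) and 6.52 to 10.1 among SZ-A mice (7.93). All HFD mice lay above all NC mice, and 6 of 7 SZ-A mice lay below every HFD mouse. The change was 0.90 ± 0.21 in HFD against NC (adjusted p = 0.0038) and -0.42 ± 0.09 in SZ-A against HFD (adjusted p = 0.0061). Socs6 measured 3.33 to 4.72 FPKM in NC (median 3.51), 3.79 to 5.97 among HFD mice (4.46) and 2.92 to 4.12 among SZ-A mice (3.19). In SZ-A 6 of 7 mice lay below every HFD mouse (-0.37 ± 0.11, adjusted p = 0.021), a call lost without HFD 5 (-0.33, adjusted p = 0.05), while HFD against NC gave 0.21 ± 0.12 (adjusted p = 0.19).

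Cish, a STAT5 target that inhibits IL-2 and growth hormone signals, measured 0.780 to 9.47 FPKM in NC (median 2.39), 0.243 to 3.16 among HFD mice (0.462) and 0.593 to 6.61 among SZ-A mice (1.13). In HFD 5 of 7 mice lay below every NC mouse (-1.04 ± 0.37, adjusted p = 0.038). This was called in 5 of 13 fits that left out 1 mouse and lost without NC 2, 3 or 4 or HFD 1, 2, 3, 5 or 7, with -0.74 (adjusted p = 0.075) without NC 2, the highest mouse. SZ-A against HFD gave 0.55 ± 0.37 (adjusted p = 0.29).

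The other SOCS genes were called in neither comparison over all mice. Socs1, an inhibitor of interferon signals, measured 0.401 to 2.50 FPKM in NC (median 0.998), 0.982 to 1.86 among HFD mice (1.28) and 0.448 to 3.21 among SZ-A mice (1.47). Socs2, the inhibitor of growth hormone signals, measured 0.611 to 2.97 FPKM in NC (median 1.15), 1.09 to 1.92 among HFD mice (1.51) and 1.0 to 1.5 among SZ-A mice (1.28). Their groups overlapped throughout. Socs4 measured 3.15 to 6.91 FPKM in NC (median 4.08), 4.82 to 7.41 among HFD mice (6.15) and 4.66 to 6.35 among SZ-A mice (4.99). Socs7 measured 2.70 to 3.80 FPKM in NC (median 3.49), 2.95 to 4.19 among HFD mice (3.48) and 2.72 to 4.04 among SZ-A mice (3.18). Socs7 had the smallest change of the family in HFD against NC (0.01 ± 0.10, 95% interval -0.20 to 0.22).

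**Figure D4:**
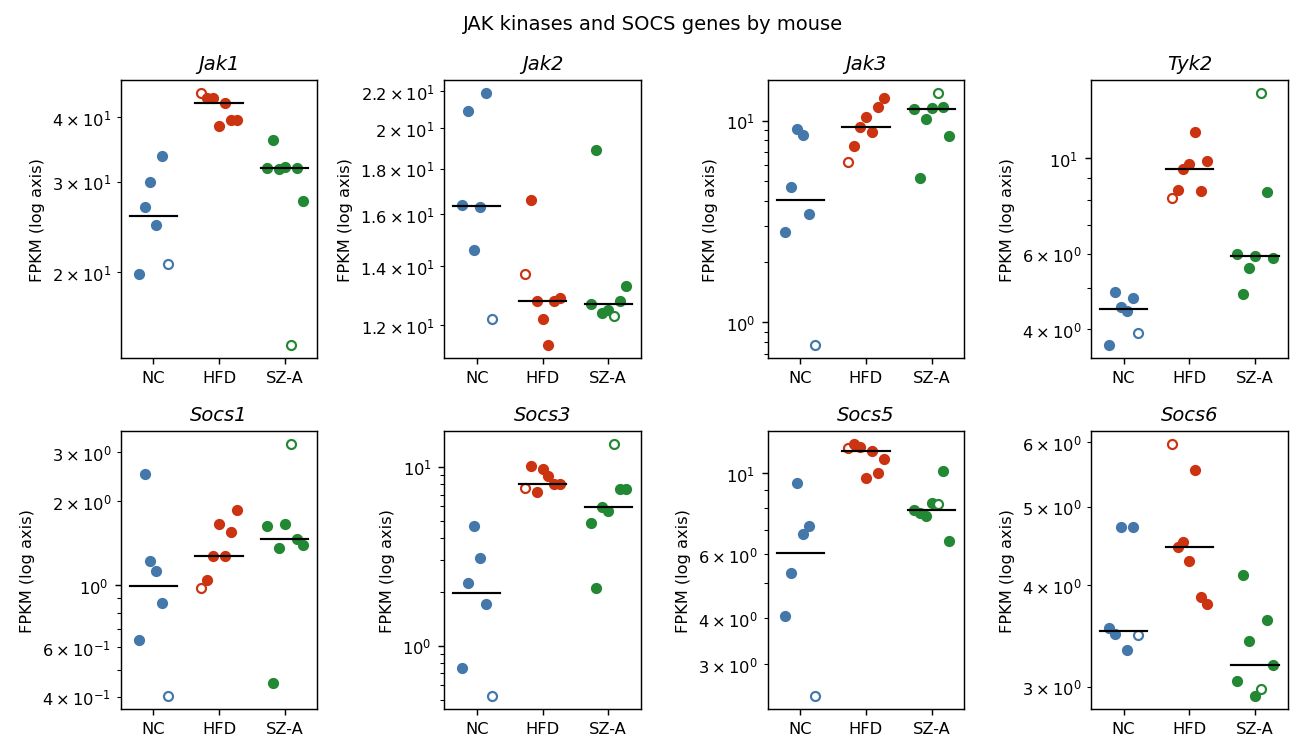
FPKM of the 4 JAK kinases and of Socs1, Socs3, Socs5 and Socs6 by mouse on log axes with separate scales, with medians as lines and NC 6, HFD 1 and SZ-A 5 as open circles. All 7 HFD mice lie above all 6 NC mice for Jak1, Tyk2, Socs3 and Socs5, and for Jak1 all 7 SZ-A mice lie below the HFD mice.

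The remaining members, Il12rb1 and Il20rb, were called in neither comparison over all mice. Il12rb1, a chain of the IL-12 and IL-23 receptors, was at most 0.483 FPKM in every mouse. Il20rb, a chain of receptors for IL-20 and related cytokines, had medians of 0.761, 0.750 and 1.41 FPKM in NC, HFD and SZ-A mice.

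Other genes of the pathway were counted in the same way. Of 64 genes listed as STATs, other JAK-dependent receptors, their ligands, inhibitors and adaptors, 53 were in the table. In HFD 21 were higher and 4 lower than in NC, and in SZ-A 4 were higher and 15 lower than in HFD. Here and for the lists below, the shares of all genes were 21.0% higher and 20.1% lower in HFD. In SZ-A they were 9.47% higher and 13.3% lower. The median log2 fold changes of the 53 genes were 0.23 and -0.12, against -0.04 and 0.03 over all genes. Stat6, which carries IL-4 and IL-13 signals, was higher in HFD and lower in SZ-A. It had medians of 21.9, 49.1 and 39.9 FPKM in NC, HFD and SZ-A, with changes of 1.23 (adjusted p = 1.3e-05) and -0.39 (adjusted p = 0.031).

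Among 18 other cytokine receptor genes that use JAK kinases, a list that also holds the ligand gene Tslp, 11 were higher and 1 was lower in HFD, and 5 were lower and 1 was higher in SZ-A. Csf2rb2, a signalling chain for IL-3, had medians of 2.74, 25.1 and 9.62 FPKM (3.05, adjusted p = 7.7e-06, and -1.07, adjusted p = 0.015). Ifnar1, Ifnar2 and Ifngr2, chains of the interferon receptors, and Crlf2, the TSLP receptor, were higher in HFD and lower in SZ-A, with changes of -0.69, -0.37, -0.58 and -0.65 in SZ-A against HFD. Cntfr was higher in SZ-A (0.70, adjusted p = 0.031). Of 5 other ligands, Ebi3, a subunit of IL-27, had medians of 1.48, 6.88 and 3.22 FPKM (1.83, adjusted p = 1.4e-06, and -0.99, adjusted p = 0.0069). Its list had 2 genes higher and 2 lower in HFD, and Ctf1 and Thpo, which were lower in HFD, were higher in SZ-A (0.89 and 0.56). Of 11 phosphatases and other inhibitors, 5 were higher and 1 lower in HFD. Ptpn1, Ptpn6, Ptprc, Cbl and Sh2b3 were higher in HFD and lower in SZ-A, by log2 changes from -1.28 to -0.45 in SZ-A against HFD. Of 12 adaptors and kinases of the IL-1 and IL-17 receptors, only Irak3 was called in HFD against NC (1.24, adjusted p = 0.0072), and in SZ-A against HFD Irak3, Irak4 and Tab2 were lower and Irak2 was higher (0.68, adjusted p = 0.034).

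The cell type marker lists differed, and those of macrophages and mast cells mostly rose in HFD and fell in SZ-A. Of 10 macrophage markers, 9 were higher in HFD and 8 were lower in SZ-A, and their summed level ran from 55.1 to 607 FPKM in NC mice. HFD mice had 2369 to 7466 and SZ-A mice 1076 to 3537, with SZ-A 5 the highest SZ-A mouse. All 7 markers of lipid-associated macrophages were higher in HFD and lower in SZ-A (summed medians 48.7, 1419 and 473 FPKM). Of 6 mast cell markers in the table, 4 were higher in HFD and 4 lower in SZ-A (18.2, 217 and 29.1). Of 9 T cell markers 1 was higher in HFD and 1 lower in SZ-A, with a summed level of 4.32 to 7.40 FPKM in NC mice, while HFD mice had 5.07 to 14.5 and SZ-A mice 4.08 to 13.3. The T cell marker higher in HFD was Cd2 (0.47, adjusted p = 0.032), and the one lower in SZ-A was Cd8a (-0.53, adjusted p = 0.033). Cd3e, a defining T cell marker, had medians of 0.256, 0.375 and 0.317 FPKM and was called in neither comparison. The part of cell makeup in the changes of the members and of the other pathway genes, Ptprc and Ptpn6 among them, was not tested.

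Of the other lists, the counts in HFD against NC are given first and those in SZ-A against HFD second. Of 4 dendritic cell markers 1 was higher, then 1 lower. Of 5 NK or innate lymphoid cell markers 2 were higher and 1 lower, then 1 lower. The 3 B cell markers were not called, then 1 was lower. Both neutrophil markers in the table were higher, then neither was called. Of 7 adipose progenitor markers 4 were higher and 1 lower, then 5 lower. Of 10 adipocyte markers 1 was higher and 2 lower, then 2 higher. The 6 endothelial markers were not called in either. Of 3 mesothelial markers 2 were lower, then they were not called. Of 5 smooth muscle markers 4 were lower, then 1 higher. Of 20 epididymis markers only Adgrg2 and Spint2 were in the table, both lower in HFD than in NC and raised again in SZ-A. Their summed level was 35.1 to 659 FPKM in NC mice, while HFD mice had 2.65 to 5.72 and SZ-A mice 6.45 to 170. NC 6 had the highest sum of this pair (659) and of the mesothelial markers (556). Whether the signal of the pair came from epididymis was not tested. The summed level of the pair did not overlap between HFD mice and either other group. A fit with it as a covariate cannot separate it from diet or SZ-A, so its signs and calls are uncertain. With the pair's mean log2 level as covariate, HFD against NC gave 8 members higher and 2 lower (13.8% and 14.2% of all genes). In SZ-A against HFD 2 were higher and 4 lower, where 5.84% and 6.78% of all genes were. Of the 10 members called in HFD against NC in that fit, 7 were also called without the covariate, and the new ones were Il15ra (-2.31, adjusted p = 2.4e-04), Il6st (-1.52, adjusted p = 0.0063) and Il20rb (0.96, adjusted p = 0.024). With the covariate 6 of the 16 members called in SZ-A against HFD kept their call, Il33, Il1rap, Il13ra1, Il15ra, Il17rc and Jak1. The others lost it, among them Il7r (-0.44), Il10ra (-0.43), Il17re (0.17) and Il17rb (0.06). In HFD against NC, 10 members that were higher without the covariate were below 0 and not called with it. They were Il6ra, Jak3, Il15, Il2rb, Il17rd, Socs5, Il16, Il2rg, Il1r1 and Il7.

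**Figure D5:**
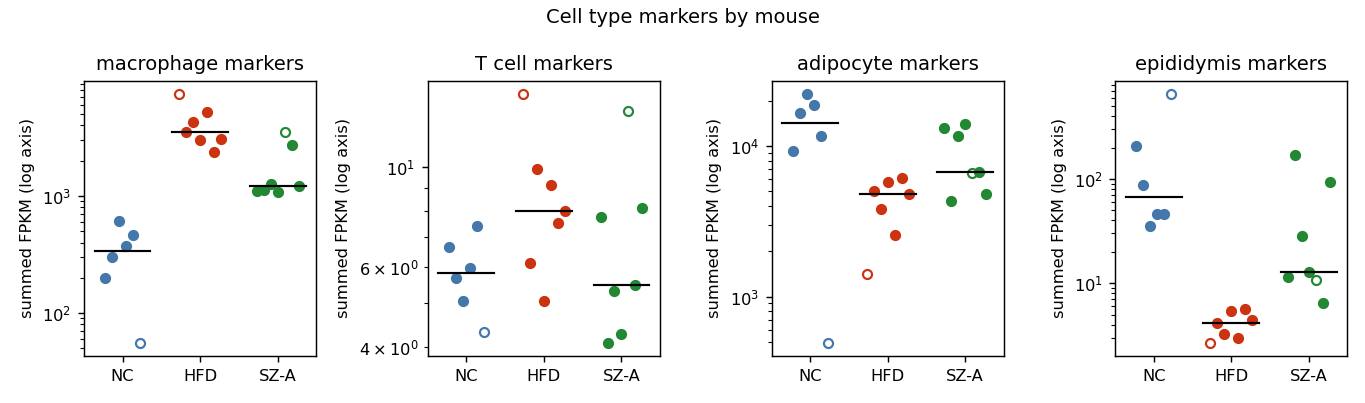
Summed FPKM of the markers of macrophages, T cells, adipocytes and epididymis by mouse on log axes with separate scales, with medians as lines and NC 6, HFD 1 and SZ-A 5 as open circles. Macrophage markers do not overlap between NC mice (up to 607) and HFD mice (from 2369), and NC 6 is the lowest mouse for adipocyte markers (488) and the highest for epididymis markers (659).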

How the data were processed

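Poly(A) RNA of eWAT from 20 mice (7 SZ-A, 7 HFD and 6 NC) was sequenced as paired-end reads. The authors aligned reads to GRCm38 with HISAT2, and the submitters' processing notes name featureCounts 1.5.0-p3. The authors deposited FPKM for 14776 genes, all above 0 in every mouse. A gene without reads in even 1 of the 20 mice was therefore not analysed here. Multiplying FPKM by the summed exon length in GENCODE M21 gave whole reads, within 0.01 reads, for 95.9% to 96.3% of values under 1000 reads. A share of 0.95 was required, so this is partly built in. Antisense overlap cannot be resolved because counting by strand is not stated.

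Groups were compared pairwise by limma 3.58.1 (lmFit and eBayes with a variance trend, R 4.3.3) on log2(FPKM + 1), with genes averaging under 0.1 FPKM across the compared mice left out, and with Benjamini-Hochberg adjustment over all genes tested. A call is an adjusted p under 0.05. Fold changes on this scale understate changes of genes under 1 FPKM. The steps were tested on simulated data. Tables and plots were made with Python 3.11.15, pandas 2.3.3, NumPy 2.4.6 and matplotlib 3.10.9.

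The members, the lists of 64 pathway genes and of cell type markers, and the tests were chosen with earlier results of these data known. Members were described in full when called in SZ-A against HFD, among the 20 smallest adjusted p in HFD against NC, or of the JAK or SOCS families. Il4 was named because the study measured it by PCR. Alternatives were voom on recovered reads, a fit of all 3 groups, a block for replicate number, an epididymis covariate, a pseudocount of 0.1, no filter or a mean of 1 FPKM, median-ratio and quantile scaling, an added log2 fold limit of 1.5, leaving out each mouse and, added after the values were seen, leaving out NC 6, HFD 1 and SZ-A 5.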

Additional observations from a re-analysis of the deposited data

Results flagged for a closer look

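In 25 of 147 tests of a member within a group, the highest or lowest mouse lay farther from its nearest neighbour than Dixon's 95% critical value allows for the group's range. Chance alone gives such a gap in about 1 in 20 groups of normally distributed values, which FPKM need not be. The members also share mice, so these tests are not independent, and an excess over that rate was not tested. SZ-A mice gave 13 of them, NC mice 7 and HFD mice 5.

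SZ-A 5 gave 11. It was the highest SZ-A mouse for Il10rb at 60.5 FPKM (next mouse 27.3), Il11ra1 at 54.4 (23.0), Il3ra at 46.8 (22.2), Il4ra at 23.6 (17.7), Tyk2 at 14.2 (8.35), Il15 at 6.00 (3.14), Il17ra at 4.36 (2.54), Il16 at 3.89 (2.31) and Il18rap at 0.744 (0.348). It was the lowest for Jak1 at 14.4 (27.5) and Il17rd at 0.464 (1.16). Its share of mitochondrial reads, 11.6%, and its macrophage marker sum, 3537 FPKM, were also the highest of the SZ-A mice, and their part in these values was not tested. SZ-A 2 was the highest for Jak2 at 18.9 FPKM (13.3) and Il13ra1 at 9.90 (4.42).

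HFD 1 was the highest HFD mouse for Il33 at 14.0 FPKM (5.42), Il13ra1 at 11.4 (6.76), Il1rl2 at 3.64 (2.46) and Il21r at 1.76 (1.10), and had the highest macrophage marker sum of all mice, 7466 FPKM. HFD 6 was the highest for Il12rb1 at 0.287 FPKM (0.149).

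NC 6 was the highest NC mouse for Il4ra at 42.0 FPKM (19.4), Il10rb at 15.7 (9.60) and Il20rb at 4.0 (1.04). Single values also stood out in other NC mice, with Cish at 9.47 FPKM in NC 2 (3.46), Il18bp at 6.29 in NC 1 (2.37), Il1r2 at 0.489 in NC 3 (0.138) and, on the low side, Il17rc at 8.52 in NC 5 (11.6).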

How the results depend on the processing

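Members called in HFD against NC numbered 31 (27 higher, 4 lower), in SZ-A against HFD 16 (4 higher, 12 lower) and in SZ-A against NC 3 (3 higher). With the added log2 limit of 1.5, counts were 7 (6 higher, 1 lower) in HFD against NC and 0 (0 higher, 0 lower) in SZ-A against HFD. With the epididymis covariate, which rests on 2 markers, they were 10 (8 higher, 2 lower) and 6 (2 higher, 4 lower), and the HFD against NC changes of Il6ra (-0.91), Jak3 (-0.74), Il15 (-0.39), Il2rb (-0.38), Il17rd (-0.35), Socs5 (-0.30), Il16 (-0.24), Il2rg (-0.24), Il1r1 (-0.19) and Il7 (-0.06) turned below 0, none of them called. These marker levels did not overlap between HFD mice and either other group, so the covariate fit cannot separate them from diet or SZ-A. With all 3 groups in the fit, 2 were higher in SZ-A against HFD (4.93% of all genes). In SZ-A against NC 9 members, all higher, were called in that fit (7.83% of all genes were higher). Without NC 6, HFD 1 and SZ-A 5, 19 were lower in SZ-A against HFD. The cause was not tested. The pseudocount, filter, scaling and voom alternatives kept every count within 1.5 times.

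Leaving out 1 mouse gave 24 to 32 called members (20 to 28 higher, 3 to 6 lower) in HFD against NC, 10 to 23 (2 to 4 higher, 8 to 19 lower) in SZ-A against HFD and 2 to 6 (2 to 6 higher) in SZ-A against NC. The 23 came without SZ-A 5, where 4296 of 14690 genes were called, and the 10 without HFD 5 (2352 of 14696). In HFD against NC the 24 came without NC 1 (5477 of 14700) and the 32 without NC 5 (6147 of 14705). In SZ-A against NC the 6 came without NC 3 (860 of 14712).

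The labels state no pairing of mice by replicate number. Deviations of same-numbered mice from their group means correlated at -0.41 to 0.584, and a shared batch was not tested. With the number as a block, 17 (15 higher, 2 lower), 10 (2 higher) and 1 (1 higher) members were called. The shares of all genes called in these fits were 30.1%, 17.8% and 1.18%. Low reads limit Il1r2, Il2ra, Il7r, Il12rb1, Il12rb2, Il17rb, Il18rap and Il22ra2, with 1 to 4 reads in their lowest mouse.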
